A study of Mus musculus with 32 samples.

Results

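Subunits of the oxidative phosphorylation system were followed in monocytes that were transferred into mice depleted of gut macrophages and then recovered from colon and ileum. The genes were chosen by name, as those whose symbol starts with Nduf and a subunit letter and digit (complex I), with Uqcr (complex III), with Cox followed by a subunit number and letter (complex IV) or with Atp5 (complex V), together with Sdha, Sdhb, Sdhc and Sdhd (complex II). This rule finds 82 of the 24411 genes listed. By symbol, 37 were counted under complex I, 4 under complex II, 8 under complex III, 16 under complex IV and 17 under complex V. The symbol alone set the complex, so Ndufa4 is counted under complex I, Cox7a2l under complex IV and Atp5sl under complex V. Of the 82 members, 78 had enough reads to be tested. The rule leaves out subunits with other names, such as Ndufab1, Cyc1 and Cox4i1, and all subunits encoded by mitochondrial DNA.

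Oxidative phosphorylation is the last stage of respiration. NADH dehydrogenase (complex I) and succinate dehydrogenase (complex II) pass electrons to ubiquinone, the cytochrome bc1 complex (complex III) hands them on to cytochrome c, and cytochrome c oxidase (complex IV) gives them to oxygen. The protons pumped on the way drive ATP synthase (complex V). Macrophages are known to shift between glycolysis and respiration with their state of activation, and the absorptive epithelium of the gut is rich in mitochondria.

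Donors of the graft were Cx3cr1 gfp/+ mice, whose BM monocytes were sorted as CD117- CD11b+ CD115+ Ly6C+ GFPint cells, and 3 libraries hold this graft. Its sample labels give blood as the organ and list no toxin. Recipients were BM chimeras, made by irradiating wild type mice as young adults and giving them BM of CD11c-DTR donors, which carry an Itgax-DTR/GFP transgene, so that the Itgax promoter drives the diphtheria toxin receptor. Toxin was injected before the transfer and repeatedly after it, and all mice were on a C57BL/6 background. For the engrafted libraries the labels give DAPI-CD45+CD11b+CD64+Ly6C-MHCII+ as the sort, and the study describes graft-derived cells as chosen by CD45.1 and GFP. They came from colon on days 4 (3 libraries), 8 (3) and 12 (4) and from ileum on the same days (4 each), so that this data set has 25 libraries. A further 6 libraries are labelled as cells of the same sort from colon of chimeras with CX3CR1-DTR BM, in which the Cx3cr1 gene drives the receptor. The study dates them to day 14. Toxin reaches only cells in which these promoters are active, and host cells without the receptor remain. Dates in the labels place the CD11c-DTR libraries in 3 experiments. The label of ileum day 8 replicate 2 bears an earlier year than others of the same day and month. That year was read as a slip, which put the library in experiment 3. The labels do not say whether a library is 1 animal, and p-values then measure only the spread between libraries, which may be technical.

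Libraries read the 3′ ends of poly(A) RNA. Totals of reads on genes ranged from 591817 to 5228664 in the CD11c-DTR libraries (median 2447862) and from 1223772 to 4218027 in the CX3CR1-DTR ones. Levels are given as CPM (reads-per-million of the reads on genes, after TMM scaling), and sums over members as percent of the reads on genes. A count of 3, taken as the floor, equals 0.585 to 5.59 CPM in the CD11c-DTR libraries. A member was called higher or lower at an adjusted p under 0.05 in the quasi-likelihood test of edgeR, with Benjamini-Hochberg adjustment over all genes tested.

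Markers of the cell types a sort of gut tissue could hold were checked in all libraries. The summed level of 10 genes of intestinal epithelium (Epcam, keratins, Vil1 and others) was 4.33 to 7.69 CPM in the graft, with Krt20, Vil1 and Cldn3 at 0, and 16700 to 26480 in the 10 colonic libraries. It was 3637 to 8881 in 10 ileal libraries and 21310 and 23770 in the remaining ileal pair. The sum of 10 macrophage genes was 9687 to 12710 in the graft, 489 to 3169 in colon and 1346 to 17060 in ileum. This sum does not rest on the same genes in each group. Lyz2 alone had 7308 to 9725 in the graft and 101 to 661 in colon. C1qa had 2.01 to 5.13 in the graft and 198 to 1291 in colon. In CX3CR1-DTR colon the epithelial sum was 19600 to 25470 and the macrophage sum 762 to 1500, and the leukocyte gene Ptprc had 1.46 to 3.71 CPM against 529 to 800 in the graft. The macrophage gene Adgre1 had 0.488 to 2.23 there against 77.6 to 170 in the graft, and Mertk had 0 to 3.48 there. Not all genes of the list were so low in CX3CR1-DTR colon. C1qa had 463 to 857.5 CPM, Csf1r 105 to 299 and Cd68 70.7 to 216. All tissue libraries thus hold epithelial transcripts although CD45+ cells were sorted, and the CX3CR1-DTR libraries are near the floor in Ptprc and Adgre1. Since these are bulk samples, fewer cells of a type and less RNA per cell cannot be told apart. The CX3CR1-DTR libraries are a separate data set, and the part of their sequencing in these low levels was not tested. Pgam1, a gene of glycolysis, had 151 ± 19.7 CPM in the graft and 0.362 ± 0.491 in CX3CR1-DTR colon. It fell most of 17 glycolytic genes, of which 9 were higher and 6 lower, against 39.5% and 36.0% of all genes. Other tissue cells were represented too. From the graft to colon day 4 all 4 tested muscle genes rose (sum 8.06 to 12.7 CPM in the graft and a median of 227 in colon day 4), as did 4 of 4 fibroblast, 3 of 4 endothelial and 4 of 4 goblet genes, and 5 of 5 proliferation genes fell. The part of RNA of epithelium and of these cells in the results that follow was not tested.

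The ileal pair with the high epithelial sum is ileum day 4 replicates 2 and 3, the libraries of experiment 1. Their sum of 5 colonic enterocyte genes (Car1, Slc26a3 and others) was 4449 and 4868 CPM, above every colonic library (1370 to 3652), whereas the other 10 ileal libraries had 125 to 495. In this list they go against their label. Their small intestinal enterocyte sum (704 and 706 CPM) lay within the other ileal libraries (519.6 to 3054) and within colon (168 to 1251). Their Paneth sums (225 and 1341) lay below every other ileal library (at least 4794), the higher one above colon (at most 461). The graft had 2850 to 4354 in these 4 Paneth genes, with Mmp7 and Defa17 at 0, so this sum is not particular to Paneth cells. Results with ileum day 4 are therefore also given for its experiment 2 libraries alone. Experiment 2 alone means below that ileum day 4 replicates 2 and 3 were left out. That leaves 2 libraries of ileum day 4, and the other groups kept all their libraries.

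In the graft the 82 members together took 1.82%, 1.96% and 2.10% of the reads on genes. On day 4 in colon they took 5.05%, 5.10% and 5.12%, a mean 2.6 times that of the graft, and the groups did not overlap. Colonic shares were 4.63% to 5.01% on day 8 and 4.68% to 5.35% on day 12, each well above the graft. Ileal shares were lower, at 2.23% to 2.92% on day 8 and 1.98% to 2.81% on day 12, where 1 of 4 libraries lay within the range of the graft. On day 4 the ileal libraries split by experiment, with 4.00% and 4.92% in experiment 1 and 2.68% and 2.72% in experiment 2. The remaining ileal library of experiment 1, day 12 replicate 2, had 2.675%. Colon day 4 has no library of experiment 1 and ileum day 4 none of experiment 3, so segment and experiment are partly confounded on that day. CX3CR1-DTR colon had 4.87% to 5.86% with a median of 5.25%.

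**Figure D1:**
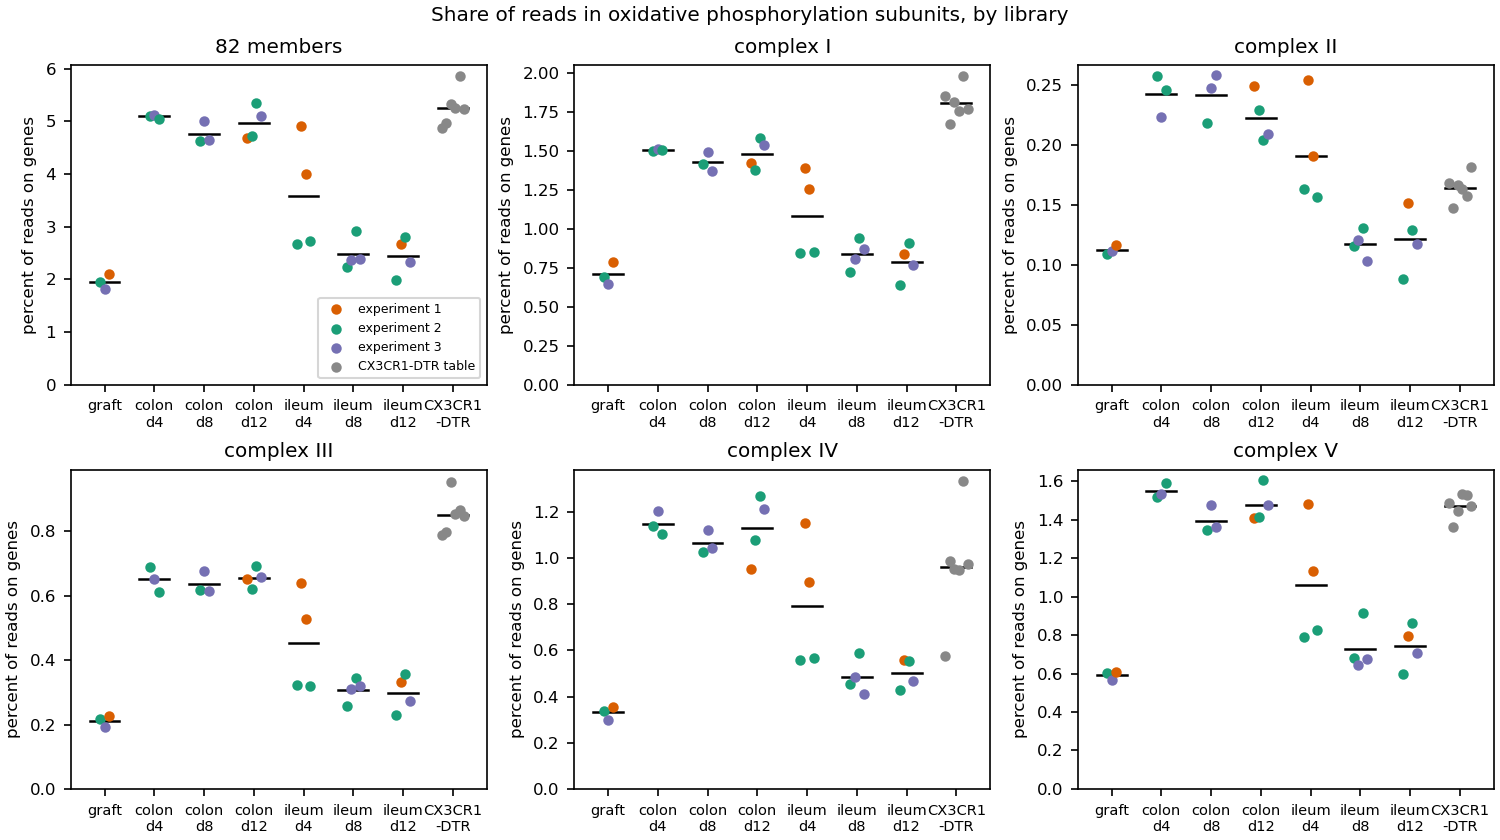
Percent of reads on genes that fell on the 82 members and on each complex, with 1 point per library, coloured by experiment, and a bar at the mean of each group. The graft lies between 1.82% and 2.10% for all members, the colonic groups of CD11c-DTR recipients between 4.63% and 5.35%, and ileum day 4 is split between 2 libraries near 2.7% and 2 at 4.00% and 4.92%.

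The complexes differed in size of the rise. Complex IV went from a mean of 0.33% ± 0.03 (SD, n = 3) in the graft to 1.15% ± 0.05 (n = 3) on day 4 in colon, 3.46 times as much. Complex III rose to 3.07 times, complex V to 2.61 times, complex II to 2.16 times and complex I to 2.13 times the mean of the graft. In ileum on day 12 the same ratios were 1.52 for complex IV, 1.41 for complex III, 1.25 for complex V, 1.11 for complex I and 1.08 for complex II, so that complexes IV and III led and complexes I and II came last in both segments. Whether the complexes differ from each other was not tested.

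Promoters of 5 members are shown next, 4 of the 6 members that hold at least 2 of 4 searched motifs of regulators of respiration, and Cox7a1 because it rose most. Of the 82 members, 69 have a window in RefSeq (GRCm38.p6, 250 bases before to 50 after the start, written 5′ to 3′ on the strand of the gene), and capitals mark the motifs on either strand. Atp5j, a coupling factor of ATP synthase, lies at chr16:84834927-84835226 (minus strand) and holds NRF1, GABP and YY1 motifs. Cox6a1, the common form of a complex IV subunit, lies at chr5:115348909-115349208 (minus strand), and Uqcr11, a small subunit of complex III, at chr10:80406772-80407071 (minus strand), each with NRF1 and GABP motifs. Sdhd, a membrane anchor of complex II, lies at chr9:50603800-50604099 (minus strand) with GABP and ERR motifs, and Cox7a1, the form of a complex IV subunit best known from heart and muscle, at chr7:30183921-30184220 (plus strand) with none of the 4.
Atp5j: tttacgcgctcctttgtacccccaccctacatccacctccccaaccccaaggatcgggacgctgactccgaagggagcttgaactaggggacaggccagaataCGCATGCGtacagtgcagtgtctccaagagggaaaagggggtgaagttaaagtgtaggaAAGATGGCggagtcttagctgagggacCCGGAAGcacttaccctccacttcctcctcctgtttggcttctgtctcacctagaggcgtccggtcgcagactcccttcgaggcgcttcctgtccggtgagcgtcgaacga
Cox6a1: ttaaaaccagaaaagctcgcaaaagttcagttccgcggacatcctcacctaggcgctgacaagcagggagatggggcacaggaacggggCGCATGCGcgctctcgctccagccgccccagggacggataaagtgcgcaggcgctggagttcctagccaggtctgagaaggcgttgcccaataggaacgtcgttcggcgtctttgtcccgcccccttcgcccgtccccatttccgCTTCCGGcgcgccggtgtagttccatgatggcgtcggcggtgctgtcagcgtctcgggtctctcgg
Uqcr11: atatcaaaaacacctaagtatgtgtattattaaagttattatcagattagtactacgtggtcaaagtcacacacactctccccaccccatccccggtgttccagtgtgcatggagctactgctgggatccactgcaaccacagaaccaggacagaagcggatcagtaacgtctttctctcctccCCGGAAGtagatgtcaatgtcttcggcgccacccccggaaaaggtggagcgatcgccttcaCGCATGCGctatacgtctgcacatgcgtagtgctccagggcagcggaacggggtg
Sdhd: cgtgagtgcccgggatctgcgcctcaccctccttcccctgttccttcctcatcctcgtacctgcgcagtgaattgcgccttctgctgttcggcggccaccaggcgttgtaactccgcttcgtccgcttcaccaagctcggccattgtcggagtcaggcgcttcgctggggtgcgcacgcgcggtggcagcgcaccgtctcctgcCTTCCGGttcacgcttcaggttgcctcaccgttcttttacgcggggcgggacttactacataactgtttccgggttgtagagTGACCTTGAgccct
Cox7a1: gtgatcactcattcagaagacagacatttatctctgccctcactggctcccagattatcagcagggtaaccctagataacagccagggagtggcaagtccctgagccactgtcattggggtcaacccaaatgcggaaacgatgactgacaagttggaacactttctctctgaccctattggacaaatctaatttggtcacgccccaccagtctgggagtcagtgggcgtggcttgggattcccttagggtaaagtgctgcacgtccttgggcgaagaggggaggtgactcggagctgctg

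The motifs were searched as fixed letters on both strands. NRF1 (CGCATGCG, which reads the same on both strands) was found in 9 of 69 members, 13.0%, against 2.07% of 27025 genes with a window. GABP (CCGGAAG) was found in 16 members, 23.2% against 9.93% of genes, and YY1 (AAGATGGC) in 11, 15.9% against 3.19%. ERR (TCAAGGTCA) was found in 2, Sdhd and Atp5g3, which is 2.9% against 0.47%. At least 1 of the 4 was in 31 members, 44.9%, against 14.5% of genes. The 27025 genes include many that were not tested here, and promoters of like GC content were not compared. Whether the excess is particular to the members was thus not tested. A motif here is a match of letters, and no binding was measured.

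The first comparison was between the graft and the libraries labelled as its colonic descendants. In it 8 of 9 macrophage genes fell (median log2 -2.57) and all 10 epithelial genes rose (12.85). The macrophage gene that rose was C1qa, from 2.01 to 5.13 CPM in the graft to 198 to 614 in colon on day 4. From the graft to colon day 4, 72 of 78 members rose and 1 fell, where 35.9% of the 11842 genes tested were higher and 24.5% lower. The median log2 change was 1.47 for the members and 0.21 for all genes. All 4 members of complex II, all 8 of complex III, 34 of 37 of complex I, 10 of 12 of complex IV and 16 of 17 of complex V rose. Their median log2 changes were 1.26, 1.80, 1.30, 1.97 and 1.49 in this order. In 75 members the 3 colonic libraries all lay above the graft, which held for 40.9% of all genes. A scaling by library totals in place of TMM moves the median of all genes in this comparison from 0.21 to -0.12, and the members stand 1.27 above that median under both.

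**Figure D2:**
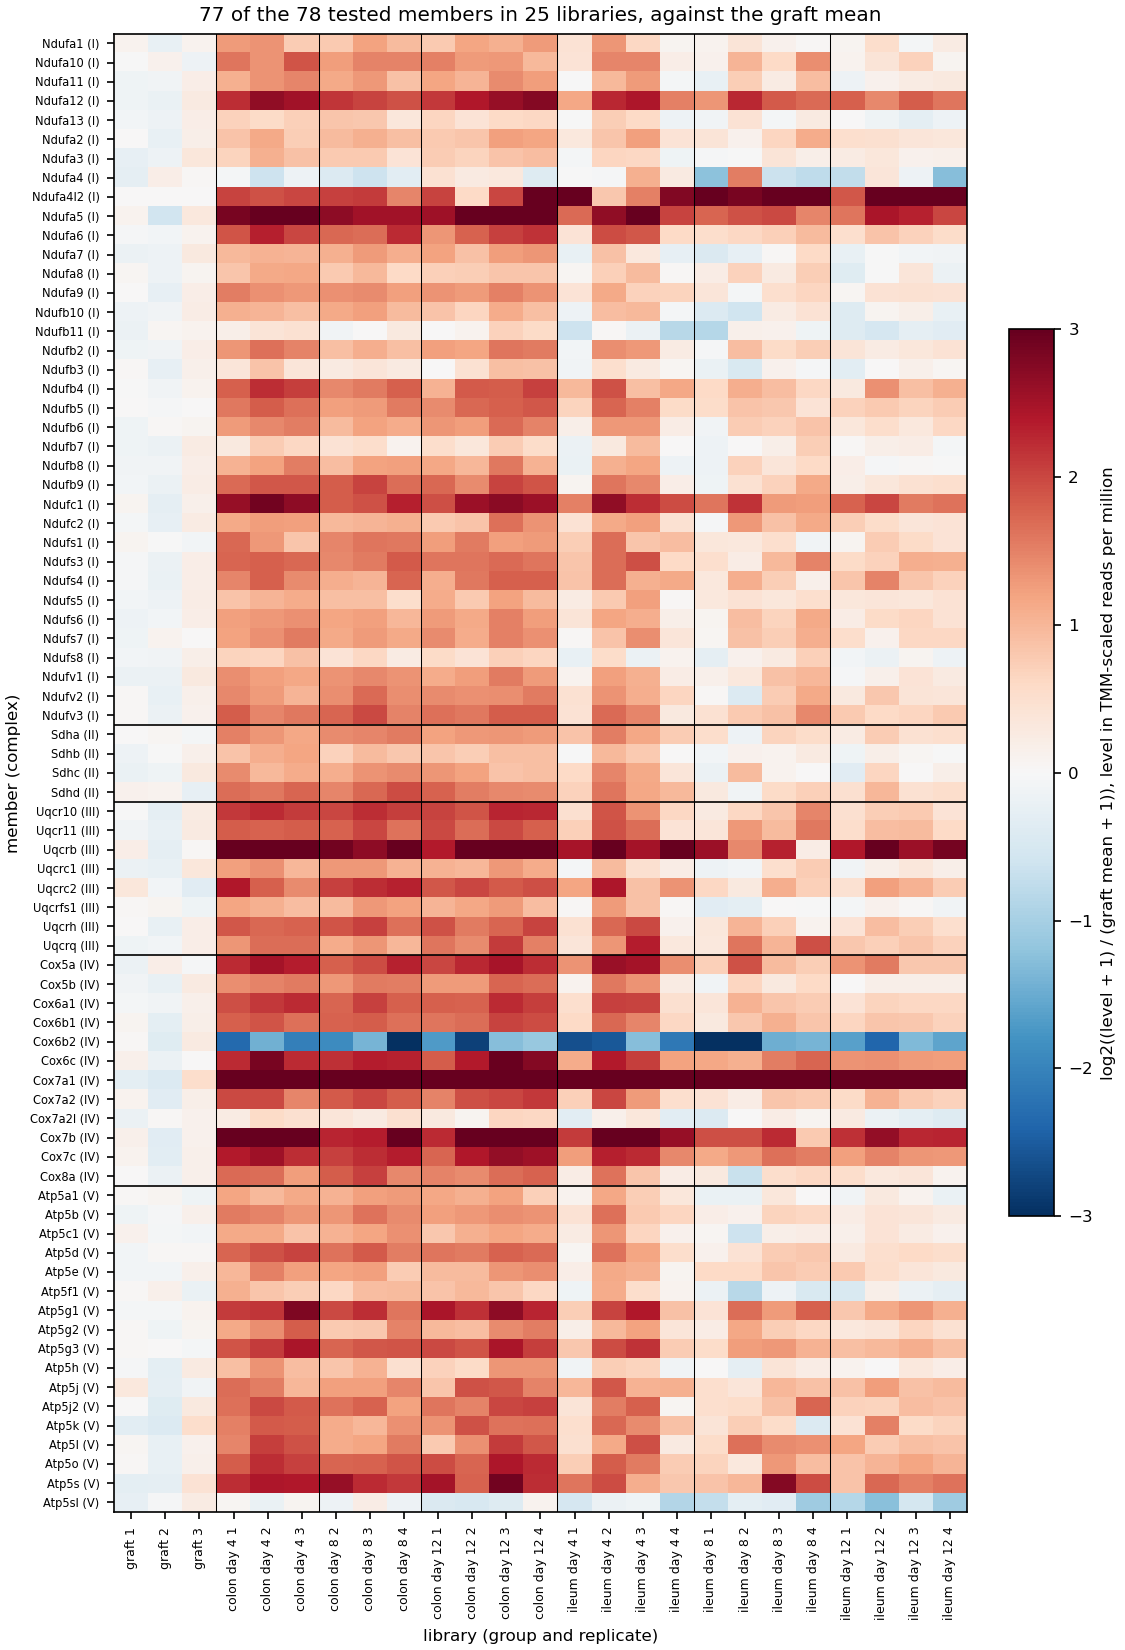
Level of 77 of the 78 tested members in each of the 25 CD11c-DTR libraries, as log2 of the level over the mean of the graft with 1 added to both in CPM, members in rows by complex and libraries in columns by group and replicate, colours ending at -3 and 3. Colonic columns are red in nearly every row, ileal columns are paler but for ileum day 4 replicates 2 and 3, and Cox6b2 is the row that is blue throughout the tissue libraries.

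Among core subunits of complex I, Ndufv1, which binds NADH, had 123, 124 and 173 CPM in the graft and 373, 333 and 316 in colon on day 4. The colonic libraries all lay above the graft, and the log2 change was 1.28 (SE 0.28, adjusted p = 0.000358). Ndufs1, the largest iron-sulfur subunit, rose by 1.35 on the log2 scale. The largest rise in complex I with enough reads was that of Ndufa5, an accessory subunit, from 37.4, 23.2 and 43.8 to 257, 310.1 and 283 CPM (log2 3.03, SE 0.32, adjusted p = 3.79e-08). Ndufb7 and Ndufb11, further accessory subunits, did not pass, with log2 changes of 0.57 and 0.35.

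In complex II, Sdha, the flavoprotein that oxidises succinate, had 144, 149 and 136 CPM in the graft and 407, 358 and 320 in colon on day 4 (log2 1.34, SE 0.22, adjusted p = 2e-05). Sdhb, its iron-sulfur partner, rose by 1.06 and the membrane anchor Sdhd by 1.68 on the log2 scale. In complex III, the core protein Uqcrc1 rose by 1.21 and the Rieske iron-sulfur protein Uqcrfs1 by 1.07. The largest rise in that complex was that of Uqcrb, a ubiquinone-binding subunit, from 39.6, 28.5 and 35.1 to 444, 685 and 401 CPM (log2 3.89, SE 0.52, adjusted p = 9.65e-07). No library of the graft reached the colonic ones in these members.

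In complex V, Atp5a1 and Atp5b form the catalytic head. Atp5b had 826, 890.3 and 1012 CPM in the graft and 2667, 2565 and 2286 in colon on day 4 (log2 1.46, SE 0.27, adjusted p = 6.79e-05), and Atp5a1 rose by 1.10. Atp5g1, Atp5g2 and Atp5g3 encode the same mature protein of the rotor ring and differ in the peptide that is cut off. Atp5g1 rose by 2.40, Atp5g3 by 2.17 and Atp5g2 by 1.49 on the log2 scale. Atp5sl, which is named like a subunit of the synthase, had 49.8, 58.6 and 70.3 CPM in the graft and 62.3, 51.5 and 63.1 in colon on day 4, and the groups overlapped.

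Complex IV has members that exist as a common form and a form of few tissues. Cox7a1 had 4, 5 and 10 reads in the graft, which is 1.47, 1.27 and 3.35 CPM, and 381, 391 and 369 CPM in colon on day 4. That was the largest rise of any member with enough reads (log2 7.54, SE 0.65, adjusted p = 1.26e-09). Its common form Cox7a2 rose from 184 ± 33.7 to 659 ± 128 (SD, n = 3 each), by 1.84 on the log2 scale, while Cox7a2l, known as a factor of supercomplexes, had 399 ± 42.3 and 542 ± 59.3 and did not pass (adjusted p = 0.111). Cox6b2, known from testis, went the other way, from 24.5, 18.3 and 29.1 to 3.94, 8.22 and 5.01 CPM (log2 -2.09, SE 0.60, adjusted p = 0.0043). Its common form Cox6b1 rose by 1.78. The nuclear subunits Cox5a and Cox5b rose by 2.37 and 1.49, Cox6a1 by 2.10, Cox8a by 1.56 and Cox7b by 3.31. The muscle genes had a sum of 60.6 to 1265 CPM in ileum day 12 and 41.1 to 557.7 in colon day 12, and their part in the level of Cox7a1 was not tested.

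The untested members were all forms of few tissues. Cox6a2, known from muscle, had 41 counts over the 25 libraries, found in 14 of them and at most 11 in 1. Cox8b had 52 counts in 12 libraries and none in the graft, Cox8c 1 count and Cox7b2 none. Of the CX3CR1-DTR libraries, Cox6a2 had counts in 5 and Cox8b in all 6, 21 and 35 in sum, and the other pair had none.

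**Figure D3:**
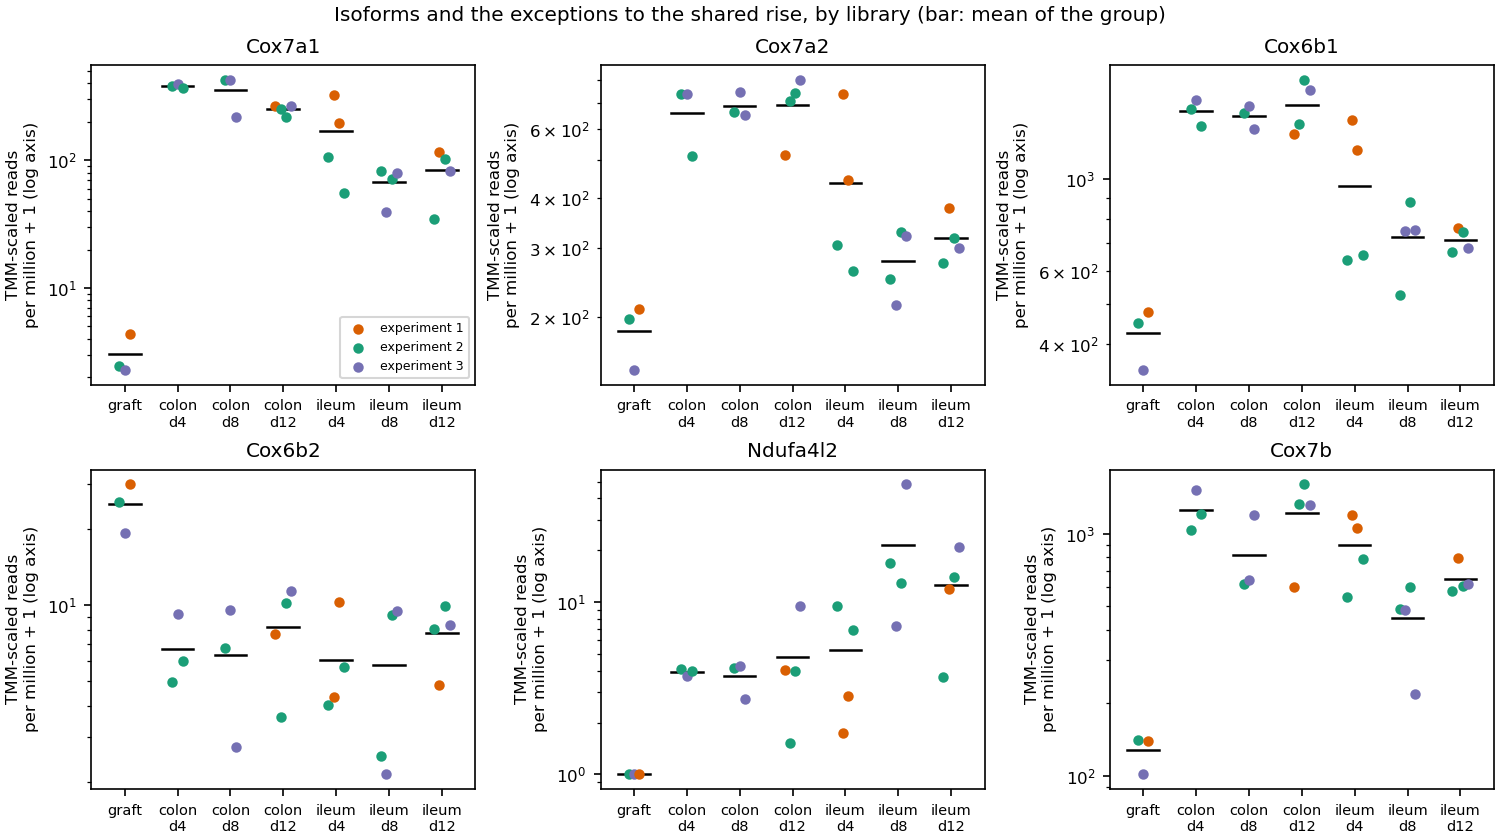
Levels of Cox7a1, Cox7a2, Cox6b1, Cox6b2, Ndufa4l2 and Cox7b in each CD11c-DTR library, in CPM plus 1 on a log axis, coloured by experiment, with a bar at the mean of each group. Cox7a1 lies at 1.27 to 3.35 CPM in the graft and 215 to 425 in colon, and Cox6b2 is the member shown that is lower in every tissue library than in the graft.

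Ndufa4 and Ndufa4l2 are related to each other, Ndufa4 being a subunit now assigned to complex IV and Ndufa4l2 a protein known to be induced by lack of oxygen. Ndufa4 had 20.5 to 29.0 CPM in the graft and 15.9 to 24.0 in colon on day 4, and did not pass in any comparison among CD11c-DTR libraries. Ndufa4l2 had no count in the graft. It reached 15.8, 6.25, 11.9 and 47.4 CPM in ileum on day 8, at least 21.3-fold the floor of 3 counts over the graft, and 2.65, 10.9, 13.0 and 19.8 on day 12. Colon had 1.76 to 3.25 on day 8, below every ileal library of that day, and Ndufa4l2 was the only member lower in colon than in ileum on day 8 (log2 -2.91, SE 0.82, adjusted p = 0.00966).

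In the colon no later change was called. From day 4 to day 8 and from day 8 to day 12 no member was called by edgeR, and the share of genes called was 0.0% in either direction. An unadjusted p under 0.05 was reached by 1 member and by 0, and neither DESeq2 nor limma called any. Colon day 12 stood to the graft much as day 4 did, with 72 members higher and 1 lower against 37.7% and 24.9% of all genes and median log2 changes of 1.43 and 0.24. Both comparisons share the graft libraries. Cox7a1 had 216 to 267 CPM on day 12, and Atp5b 2136, 2238, 2407 and 2300.

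In the ileum fewer members moved. From the graft to ileum day 4, 58 members rose and 1 fell, against 36.2% and 20.5% of all genes, with median log2 changes of 0.96 and 0.23. The 59 calls became 34 with library totals, 30 with limma and 39 with a fit of the compared groups alone. With the ileum day 4 libraries of experiment 2 alone, 27 rose and 2 fell, where 32.3% of genes rose and 1999 of 11842 fell. The members' share of rises was thus near the background, and the medians were 0.33 for the members and 0.16 for all genes. The rise of Cox7a1 (5.30 on the log2 scale), Uqcrb (2.82), Cox7b (2.40), Ndufa5 (1.91) and Sdhd (0.85) passed with experiment 2 alone, whereas Atp5a1 (0.22), Cox5b (0.18) and Ndufv1 (0.16) did not. Cox6a1 shows the split, with 973 and 956 CPM in experiment 2, 2839 and 2758 in experiment 1, and 636 to 752 in the graft.

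From the graft to ileum day 12, 28 members rose and 2 fell. The share of all genes was 35.9% higher and 20.0% lower, so the members' share of rises was that of the background, and the medians were 0.48 and 0.22. A scaling by library totals gave 10 rises and 6 falls, and limma 10 and 9, without shares over all genes for either. With library totals the medians were 0.02 for the members and -0.25 for all genes. Complex IV had 7 of 12 members higher, complex V 7 of 17, complex III 3 of 8, complex II 2 of 4 and complex I 9 of 37. Of the catalytic and other main subunits, Cox5a rose (428 ± 112.5 against 190 ± 24.4, n = 4 and 3, log2 1.17) and so did Sdha (0.50), while the others did not pass. Among those, Atp5a1 had 609, 804, 708 and 574 CPM against 606 to 695, Sdhb 397, 489, 450.0 and 431 against 389 to 479, and Uqcrfs1 349, 396, 377 and 337 against 331 to 388. Cox7a1 (33.6, 116, 101 and 80.7 CPM, log2 5.34), Uqcrb (2.76), Cox7b (2.36) and Ndufa5 (2.16) rose most among members with enough reads, followed by Ndufc1 (1.79) and Ndufa12 (1.70), and Atp5g1 (1.11) led in complex V. Cox6b2 (log2 -1.79) and Atp5sl (-0.92, adjusted p = 0.00173) fell.

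Between ileum day 4 and day 8, 5 members fell and none rose, against 4.42% of genes lower and 0.718% higher. Of 10 epithelial genes 3 fell, as did 4 of 5 colonic enterocyte genes, and none of either did with experiment 2 alone. Their part was not tested. The members were Ndufs1 (log2 -0.83), Sdha (-0.68), Sdhd (-0.75), Uqcrfs1 (-0.81) and Atp5f1 (-0.86), a stalk subunit of ATP synthase. An unadjusted p under 0.05 was reached by 27 members. No member was called with experiment 2 alone or with the experiment as a block, and leaving out 1 library gave 0 calls without ileum day 4 replicate 2 and 2 without replicate 3, but 19 without replicate 1 and 12 without replicate 4. Leaving out an ileum day 8 library gave 1 call without replicate 1 or 4, 2 without replicate 2 and 3 without replicate 3. From ileum day 8 to day 12 edgeR called no member and 0.0% of genes in each direction, 2 members had an unadjusted p under 0.05, and DESeq2 and limma called none.

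Colon and ileum were compared on each day. On day 12, 70 of 78 members were higher in colon and none lower, against 15.3% of all genes higher and 17.2% lower. The median log2 difference was 0.92 for the members and -0.01 for all genes, and 65 members had every colonic library above every ileal one, which held for 17.4% of genes. By complex, 33 of 37, 4 of 4, 7 of 8, 11 of 12 and 15 of 17 were higher, from complex I to complex V. On day 8, 43 members were higher and 1 lower, against 16.7% and 18.3% of genes, with medians of 0.76 and -0.05. On day 4 edgeR called no member, against 0.524% of genes higher and 2.66% lower, with 37 members at an unadjusted p under 0.05, 10 called by DESeq2 and 13 by limma. A block by experiment gave 15, leaving out ileum day 4 replicate 2 gave 37 and replicate 3 gave 2. With only the 2 ileum day 4 libraries of experiment 2, against all 3 of colon day 4, 60 members were higher in colon. The share of genes was 12.9%, and the members' median was 1.07 in place of 0.53.

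Uqcr10, a small subunit of complex III, had the largest difference among called members of complexes I, II, III and V on day 12. It had 1441, 1302, 1715 and 1684 CPM in colon and 494, 591, 606 and 469 in ileum (log2 1.51, SE 0.28, adjusted p = 0.00061). Cox7a1 differed by 1.59, with 216 to 267 in colon and 33.6 to 116 in ileum. Ndufb9, an accessory subunit of complex I, differed by 1.41, Atp5g1 by 1.32 and Sdhc, a membrane anchor of complex II, by 0.92. Cox5b, a nuclear subunit of complex IV, had 595 to 828 in colon and 248 to 279 in ileum (log2 1.38, SE 0.27), and Atp5b 2136 to 2407 and 1055 to 1209 (1.01, SE 0.23). In all of these the segments did not overlap. Members that did not pass were Atp5j, Atp5l, Cox6b2, Ndufa4, Ndufa4l2, Ndufb7, Ndufs4 and Uqcrb.

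Epithelial markers moved with these differences. All 10 epithelial genes were higher in colon than in ileum on day 12 and 8 of 10 on day 8, with median log2 differences of 1.64 and 1.78, and of 9 macrophage genes tested 9 and 8 were lower. All 4 Paneth and all 4 endothelial genes were lower in colon on both days. From the graft all 10 epithelial genes rose in each segment. Neither epithelial nor macrophage RNA was separated from the members' differences here, and their part was not tested. The difference of the segments in change over time was tested as an interaction. No member and no gene was called from day 4 to day 8, day 8 to day 12 or day 4 to day 12 by edgeR, with 8, 1 and 2 members at an unadjusted p under 0.05. With experiment 2 alone on ileum day 4 none was called either, with 16, 4 and 0 members at that p.

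**Figure D4:**
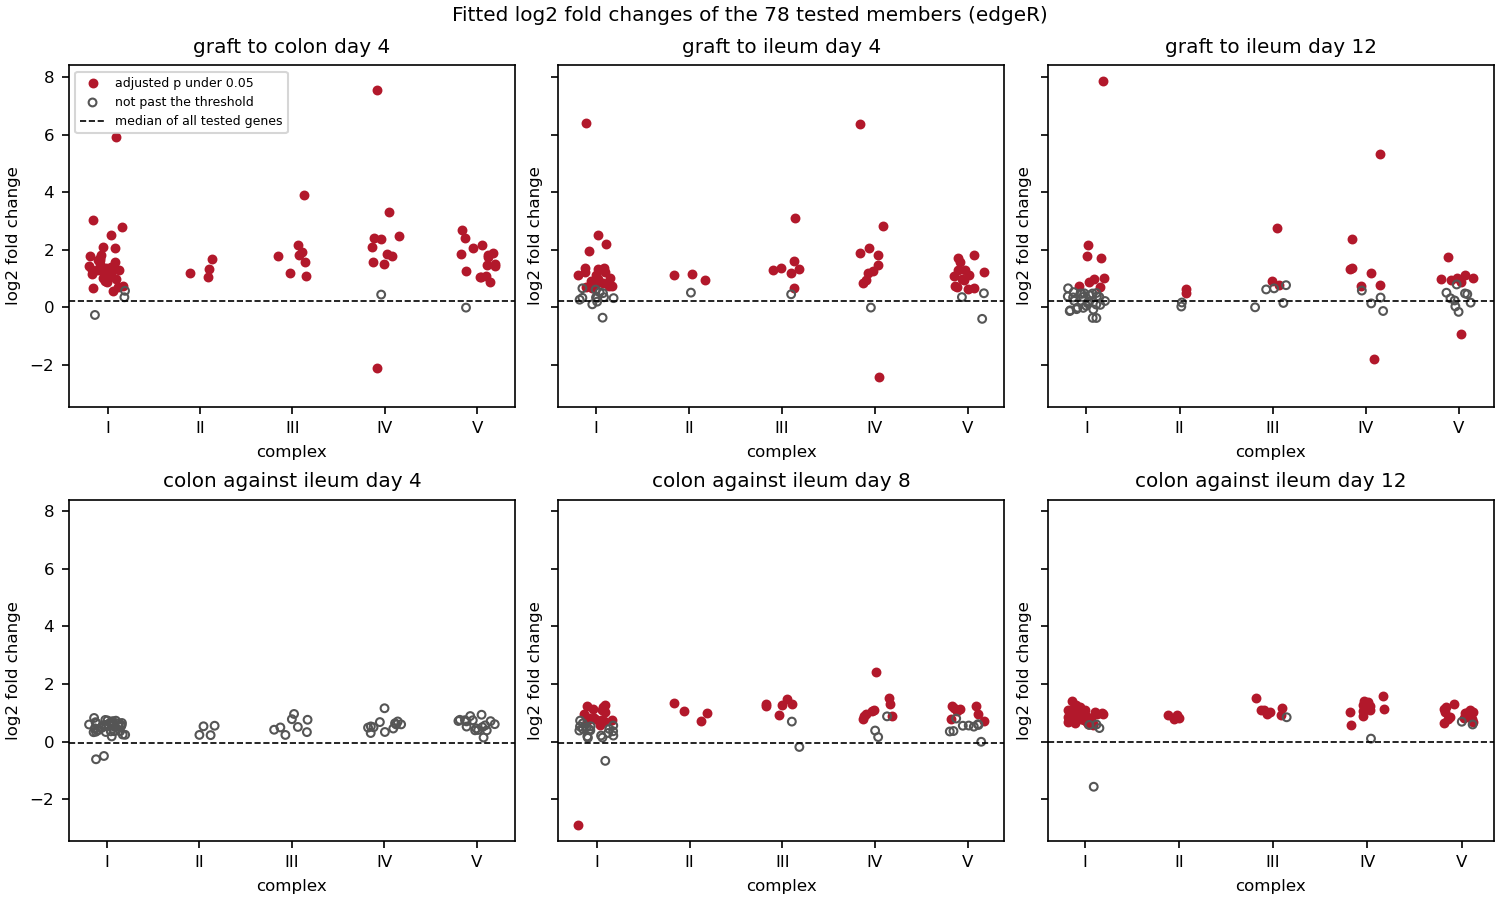
Fitted log2 fold changes of the 78 tested members by complex in 6 comparisons, filled where the adjusted p was under 0.05 and open elsewhere, with a dashed line at the median over all genes. Between graft and colon day 4 the members have a median of 1.47, from the graft to ileum day 12 of 0.48, and colon stands above ileum by medians of 0.53, 0.76 and 0.92 on days 4, 8 and 12.

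Other genes of respiration were counted from lists of the pathway. From the graft to colon day 4 all 7 tested subunits and carriers that the rule leaves out rose, with Usmg5, a small protein of ATP synthase, at 6.87 ± 2.10 and 85.2 ± 28.2 CPM (log2 3.63). Of 41 assembly factors 27 rose, led by Ndufaf2 (2.04), and 1 fell, Ndufaf7 (-0.82). Of 16 enzymes of the citrate cycle 15 rose, led by Suclg2 (3.34), a subunit of succinate-CoA ligase. Of 78 proteins of the mitochondrial ribosome 35 rose, led by Mrps6 (4.43), and 2 fell, with Mrpl33 falling most (-1.39). Of 17 glycolytic genes 7 were higher and 4 lower, Pfkl at 2.28 and Hk3 at -4.98. Over all genes 35.9% were higher and 24.5% lower, and glycolysis and the ribosome were near the first share. Median log2 changes were 1.94, 0.89, 1.15, 0.53 and 0.59 in this order, above the 0.21 of all genes.

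Of 12 regulators 5 rose and 2 fell from the graft to colon day 4, near the shares over all genes. Ppargc1a, a coactivator known to drive mitochondrial genes, had no count in the graft and 38.2 ± 8.98 CPM (SD, n = 3) in colon on day 4, at least 39.9-fold the floor over the graft. Nrf1, the factor whose motif was searched, fell from 30.5 ± 14.9 to 8.71 ± 4.39 (log2 -1.76, SE 0.40, adjusted p = 0.000539). On day 12 Ppargc1b, a relative of Ppargc1a, was higher in colon than in ileum (76.4 ± 17.2 against 27.8 ± 4.14, log2 1.45, n = 4 each). It had the largest rise of the 12 regulators there. Of these, 3 were higher and 1 lower with a median of 0.13, against 15.3% and 17.2% of all genes.

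In ileum on day 12, where 35.9% of all genes were higher and 20.0% lower than in the graft, only the outside subunits stood above the first of these shares. Of the same lists 6 of 7 outside subunits, 12 of 41 assembly factors, 5 of 16 citrate cycle enzymes, 19 of 78 ribosomal proteins and 2 of 17 glycolytic genes rose, and 0, 2, 0, 9 and 7 fell. Against 15.3% of genes higher and 17.2% lower, colon stood above ileum on day 12 in 5 of 7, 14 of 41, 12 of 16, 24 of 78 and 9 of 17, and below it in none but 2 glycolytic genes, among them Hk3 (-3.04). Cyc1, the cytochrome c1 of complex III, was at 832 ± 68.8 in colon and 388 ± 98.4 in ileum on day 12 (log2 1.10).

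Across the 25 libraries the members went together, and the median correlation of a member with the mean of the other members was 0.90. Cox6b1 (0.99), Cox6a1 (0.98) and Atp5d (0.98) were closest to that mean, and Ndufa4l2 (-0.42), Cox6b2 (-0.23), Ndufa4 (0.16) and Atp5sl (0.45) least like it. The genes outside the rule with the closest pattern were Nans (r = 0.98), Selenbp1 (0.98), St6galnac6 (0.98), Hoxa10 (0.97) and Tmem254a (0.97). Without ileum day 4 of experiment 1 (23 libraries) the median was 0.91 and the closest genes were Selenbp1 (0.99), Nans (0.98), Selenbp2 (0.98), Eif4ebp3 (0.98) and St6galnac6 (0.98). These are descriptions over libraries that share depth, tissue and epithelial content.

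CX3CR1-DTR colon gave a similar share of reads to the members but divided them differently. From the graft 51 members rose and 6 fell, against 39.5% and 36.0% of 11718 genes, with median log2 changes of 1.53 and 0.13. By complex, 27 of complex I rose and 2 fell, 2 and 1 of complex II, 5 and 2 of complex III, 8 and 0 of complex IV and 9 and 1 of complex V. Complex III took 0.788% to 0.954% of reads on genes and complex II 0.147% to 0.181%. These lay above and below all 10 colonic CD11c-DTR libraries of the main analysis (0.610% to 0.692% and 0.204% to 0.258%). Colon day 8 replicate 1, left out of the main analysis, had 0.118% in complex II, below the CX3CR1-DTR libraries. Against CD11c-DTR colon day 12, 19 members were higher and 20 lower, where 25.2% of genes were higher and 35.4% lower, and the medians were 0.11 and -0.11. In that second comparison the members' share of higher calls was thus close to the background, and their share of lower calls was below it. These libraries have a table of their own, and the day, the recipient and the sequencing cannot be told apart.

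A few members were nearly missing. Atp5g2 had 0.87 to 5.5 CPM (median 2.34) against 372 ± 74.8 (SD, n = 4) in CD11c-DTR colon day 12 on the scale of the same fit, a log2 difference of -6.87 (SE 0.30). Uqcrb had 2.23 to 15.3 (median 2.84) against 446 ± 172, Uqcrc2, a core protein of complex III, 1.23 to 40.0 (median 3.96), and Sdhd 3.47 to 60.5 (median 5.52) against 564 ± 61.5. In these members all 6 libraries also lay below every library of the graft. Cox7c, a small subunit of complex IV, was lower by 2.79 on the log2 scale and Ndufs4, an accessory subunit of complex I, by 3.00. Higher were Ndufa4 (1.98), Uqcr11 (1.08, 1274 to 2000 against 766 ± 76.3) and Atp5sl (1.00), though an offset for GC content turned Uqcr11 to -0.17 and Atp5sl to -0.21.

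Other members kept a level of the same order as in CD11c-DTR colon. Sdhb had 701 to 964 (median 802) against 828 ± 31.2, Cox7a1 121 to 231 (median 182) against 264 ± 22.9, which was lower by 0.56 on the log2 scale, and Ndufv1 412 to 685 (median 585) against 370 ± 50.4, which the GC offset turned to -0.65. Cox7a1 was again the member with the largest rise from the graft among those with enough reads (log2 6.57, SE 0.34, adjusted p = 8.43e-10).

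For the other lists of respiration the shares over all genes in this comparison, 25.2% higher and 35.4% lower, are the background. Of 42 assembly factors 8 were higher and 12 lower than in CD11c-DTR colon day 12, of 16 citrate cycle enzymes 2 and 8, and of 77 mitochondrial ribosomal proteins 22 and 20. Of 7 subunits and carriers outside the rule none was higher and 3 were lower, among them Cycs, the carrier cytochrome c (230.2 ± 53.4 and 10.0 ± 6.85 CPM, log2 -4.43, n = 4 and 6). Coa3, an assembly factor of complex IV, was higher (189 ± 13.9 and 487 ± 139, log2 1.36).

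Replicate 1 of these libraries stood apart. Atp5a1 had 33.0 CPM there and 1506 to 1840 in the other 5, Atp5g3 16.5 against 1175 to 2521, Uqcrh, the hinge protein of complex III, 171 against 2074 to 2707, Sdha 7.80 against 124 to 211, and Ndufa4 1.73 against 112 to 205. In 22 of 78 members it lay more than 2 log2 units below the lowest of the other 5, which held for 17.5% of all tested genes. Without it 71 members were called from the graft, 62 higher and 9 lower. The share over all genes in that fit is not given here, so this is not read as a result about the members.

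GC content moved with this comparison. The Spearman correlation between the log2 difference of CX3CR1-DTR colon to CD11c-DTR colon day 12 and the GC content of the last 300 bases of the transcript was 0.55 over 72 members and 0.62 over 9323 genes, as a description. From the graft to colon day 4 it was -0.11 and 0.01. The third of members with the lowest GC (28.0% to 41.7%) had a median log2 difference of -0.81 with 1 higher and 11 lower, and the third with the highest (51.3% to 59.3%) 0.57 with 12 higher and 2 lower. Members with a near-identical copy of this end elsewhere in mm9, 15 of 72, had a median of -1.48 against 0.27 in the 57 without. Atp5l has 9 such copies, Atp5g2 and Cox7c have 3 and Uqcrb and Cox5b 2, and since only uniquely mapping reads were kept, levels of these members are uncertain. Uqcrc2 (28.0% GC) and Sdhd (33.3%) have no copy. With an offset for GC in the fit, chosen after seeing the data, 4 of the 72 members with a GC value were higher and 40 lower. Their median was -0.70. The sign of the members' median in this comparison was thus not stable. From the graft 39 of these 72 rose and 10 fell with that offset, against 51 and 6 of 78 in the main fit. The counts with and without the offset are thus not of the same set of members. Shares over all genes with the offset are not given here. A shift of the members therefore cannot be told from one of all genes.

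**Figure D5:**
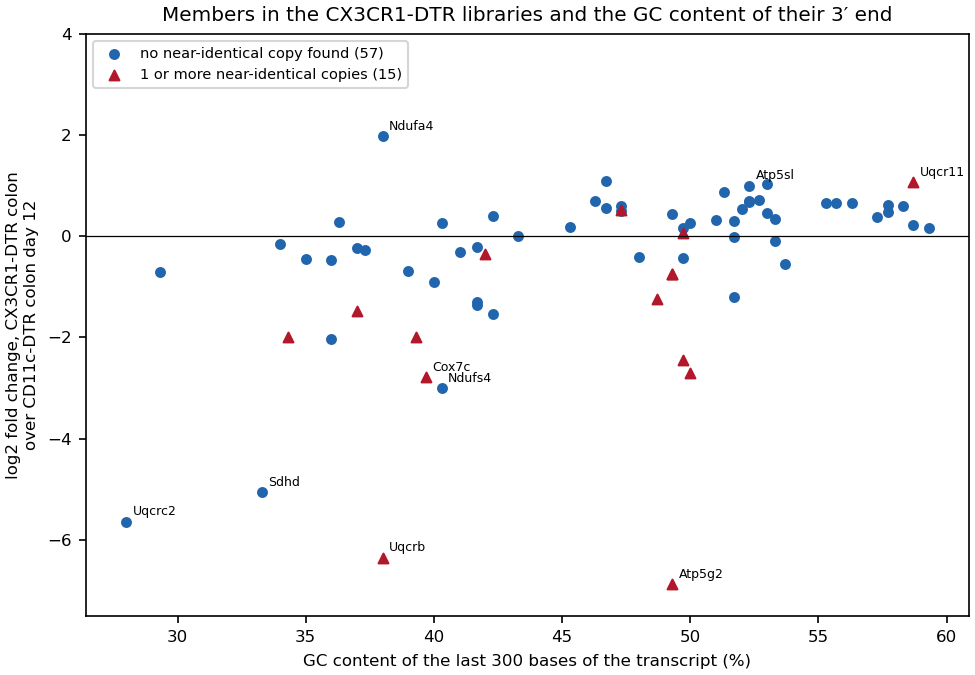
Log2 fold change of CX3CR1-DTR colon over CD11c-DTR colon day 12 against the GC content in percent of the last 300 bases, for 72 members, with triangles for the 15 with a near-identical copy elsewhere in mm9. The lowest points are Atp5g2 at -6.87 and Uqcrb at -6.35, both with copies, and Uqcrc2 at -5.64 and Sdhd at -5.06 at low GC.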

How the data were processed

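Poly(A) RNA was sequenced from the 3′ end by a derivation of MARS-seq. The submitters' processing notes name bcl2fastq, HISAT 0.1.6, HOMER and the build mm9. The authors kept uniquely mapping reads and deposited raw counts of sense reads on exons per gene, not normalized, and a collapse of molecular identifiers is not given in the sources used here, so that floors cover counting error only. The deposited CX3CR1-DTR file also has 52 unnamed columns, which were left aside. Of 26 CD11c-DTR libraries, colon day 8 replicate 1 is not among the study's plotted columns and was left out of the main analysis. The study lists 4 repeats for CX3CR1-DTR recipients and 6 libraries were used.

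The quasi-likelihood test of edgeR 4.0.16 (R 4.3.3) was run on the counts with TMM factors, with 7 groups for the CD11c-DTR table (11842 genes) and a second fit of 13 libraries and 3 groups for CX3CR1-DTR colon (11718 genes). Tested genes had at least 50 reads per 10000000 mapped reads in 3 libraries. DESeq2 1.42.0 and limma 3.58.1, the latter on log2 of these values plus 50, library totals, no filter, a fit of the compared groups, all 4 colon day 8 libraries, ileum day 4 of experiment 2 only, an experiment block and leaving out each library were alternatives. Shares of all genes called are given for the main fits and the fit with ileum day 4 of experiment 2 only, not for other alternatives. Scripts were tested on simulated data. Chi-square over degrees of freedom was at least 4.73 in all 51 pairs of libraries within groups, so none was a duplicate. Deviations of libraries from their group means correlated with a median of 0.02 in 96 pairs of the same experiment and -0.01 in 171 other pairs, and dates in the labels gave the experiments. Copies of the last 300 bases were searched in mm9 with blastn 2.17.0 (identity of at least 97% over 100 bases).

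Per-library values are given for a fixed set of main subunits, isoform sets and, in each complex, the called member with the largest rise or fall and a mean of at least 200 reads per 10000000 mapped reads in the higher group. A result for 1 member is not reported here. Members and lists were chosen with earlier results of these data known.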

Additional observations from a re-analysis of the deposited data

Results flagged for a closer look

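In ileum on day 8 complex V took 0.913% of the reads on genes in replicate 3 and 0.643% to 0.680% in the other 3 libraries. The gap to the nearest library exceeded Dixon's 95% value for 4 samples, which chance passes in about 1 of 20 groups, and 30 sums were examined.

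Colon day 8 replicate 1, which entered none of the main comparisons, gave 3.09% of its reads on genes to the members. That is above the graft (at most 2.10%) and below the other colonic libraries (at least 4.63%).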

How the results depend on the processing

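Main counts of called members were 59 for graft to ileum day 4, 30 for graft to ileum day 12, 5 for ileum day 4 to day 8, 0 and 44 for colon against ileum on days 4 and 8, and 39 for CD11c-DTR colon day 12 to CX3CR1-DTR colon. Library totals gave 34 for graft to ileum day 4 and 16 for graft to ileum day 12. DESeq2 gave 13 for ileum day 4 to day 8 and 10 for colon against ileum day 4. limma gave 30 and 19 for the graft to ileum day 4 and day 12, 13 and 67 for colon against ileum day 4 and day 8, and 42 for colon day 12 to CX3CR1-DTR colon with the median turned to -0.04. A fit of the compared groups only gave 39 for graft to ileum day 4 and 0 for ileum day 4 to day 8, no filter gave 1 for the latter and all 4 colon day 8 libraries 0. Ileum day 4 of experiment 2 only gave 29 for graft to ileum day 4, 60 for colon against ileum day 4, and 0 for ileum day 4 to day 8 with the median turned to 0.23. The experiment as replicate block gave 0 for ileum day 4 to day 8 and 15 for colon against ileum day 4, and moved no other count by over 1.5 times. The GC offset, added after seeing the data and run on only the 72 members with a GC value, gave 2 for ileum day 4 to day 8. For colon day 12 to CX3CR1-DTR colon the offset gave 44 with the median at -0.70. It reversed Cox5b (-0.051), Cox8a (-0.60) and Sdhb (-0.23) from the graft to CX3CR1-DTR colon, and Atp5sl (-0.21), Ndufv1 (-0.65) and Uqcr11 (-0.17) from colon day 12. The cause was not tested.

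Leaving out 1 library gave 71 to 73 and 70 to 74 for graft to colon day 4 and day 12, 48 to 65 and 21 to 29 for graft to ileum day 4 and day 12, 0 to 19 for ileum day 4 to day 8, 0 to 37, 31 to 44 and 54 to 69 for colon against ileum on days 4, 8 and 12, 56 to 71 for graft to CX3CR1-DTR colon and 34 to 49 for colon day 12 to CX3CR1-DTR colon, where the median turned to -0.01 without colon day 12 replicate 2. The other 3 comparisons stayed at 0. Of 169 called results of named members, 124 passed in every alternative run. Of the 2674 alternatives of these, 2467 kept direction and call, 201 lost the call and 6 reversed.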
